A study of Mus musculus with 4 samples.

Results

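CTCF summits that were listed in the line lacking CBS8-10 and had no counterpart in the 3 other lines numbered 7098, of 64499 summits of that line on the autosomes other than chromosome 11 (11%, 95% Wilson interval 10.8% to 11.2%). They were chosen by the position of their summit, the base of highest signal in a peak, with no summit within 250 bp in any of the other 3 lists. The 4 lists held 334066 summits in all, and the other 57401 summits of the Del(CBS8-10) line on the same autosomes served for comparison. "In the Del(CBS8-10) list only" describes membership of the deposited lists, and a site missing from a list may still have carried signal below the limit of peak calling.

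The study profiled CTCF by CUT&RUN in mESC, mouse embryonic stem cells, from lines of 4 genotypes, each represented by 1 library. Every line carried a HoxB deletion (Del) on one chromosome 11 and, opposite it, a chromosome 11 lacking the region i9-13 of HoxB, written Del(i9-13), into which an array of CTCF binding sites (CBS5-10) had been inserted. CBS8-10 had been deleted from the inserted array in the Del(CBS8-10) line, the array was inverted with CBS7-10 deleted in the Inv:Del(CBS7-10) line, inverted and complete in the Inv line, and complete and uninverted in the Ins line. The edits lie on chromosome 11, which was left out, so the summits described here are on chromosomes that were not edited. With a single library per line, a difference between lists cannot be told apart from a difference between libraries, no test between genotypes was possible, and every interval below covers counting error alone.

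CTCF is a zinc-finger DNA-binding protein that occupies insulators and many other sites across the genome. It halts the loop-extruding cohesin complex, and pairs of facing CTCF sites often form the bases of chromatin loops and the borders of topologically associating domains. CUT&RUN maps such a protein by tethering a nuclease to it with an antibody, so that the DNA around a bound site is cut free and sequenced. A peak caller then compares the pileup of reads or fragments at a place with the local background. It gives each peak a fold, a p-value and a q-value.

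The sequences below show what lay under the summits at gene starts, where RefSeq promoters of the GRCm38.p6 build (250 bases before to 50 after the start) could be read. The 5 member promoters are those of the protein-coding genes with the highest −log10 q among promoters that held such a summit, and the 2 shared ones, from promoters with a summit in all 4 lists, stand beside them for contrast. Capitals mark AGNNGGC or its reverse complement GCCNNCT, the inner part of the CTCF motif, and each sequence runs 5′ to 3′ on the strand of its gene.
Add1, chr5:34573414-34573713, plus strand: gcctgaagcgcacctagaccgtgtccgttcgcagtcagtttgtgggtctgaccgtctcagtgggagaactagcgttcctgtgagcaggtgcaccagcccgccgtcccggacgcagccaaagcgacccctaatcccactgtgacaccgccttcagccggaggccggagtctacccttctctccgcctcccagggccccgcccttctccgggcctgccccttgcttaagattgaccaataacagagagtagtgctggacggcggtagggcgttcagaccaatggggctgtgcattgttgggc
Pik3r4, chr9:105642745-105643044, plus strand: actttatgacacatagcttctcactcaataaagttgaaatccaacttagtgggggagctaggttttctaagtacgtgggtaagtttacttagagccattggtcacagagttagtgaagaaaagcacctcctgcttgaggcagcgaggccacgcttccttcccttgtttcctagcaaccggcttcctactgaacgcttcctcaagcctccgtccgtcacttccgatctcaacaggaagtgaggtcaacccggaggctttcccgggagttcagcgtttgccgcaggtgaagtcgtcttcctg
Elavl2, chr4:91376447-91376746, minus strand: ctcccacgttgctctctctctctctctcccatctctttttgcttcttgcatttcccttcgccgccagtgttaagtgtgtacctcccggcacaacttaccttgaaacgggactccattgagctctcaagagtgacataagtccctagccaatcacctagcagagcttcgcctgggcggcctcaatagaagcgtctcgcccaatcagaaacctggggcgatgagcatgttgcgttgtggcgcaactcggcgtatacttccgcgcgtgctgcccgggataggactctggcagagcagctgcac
Cdh6, chr15:13173626-13173925, minus strand: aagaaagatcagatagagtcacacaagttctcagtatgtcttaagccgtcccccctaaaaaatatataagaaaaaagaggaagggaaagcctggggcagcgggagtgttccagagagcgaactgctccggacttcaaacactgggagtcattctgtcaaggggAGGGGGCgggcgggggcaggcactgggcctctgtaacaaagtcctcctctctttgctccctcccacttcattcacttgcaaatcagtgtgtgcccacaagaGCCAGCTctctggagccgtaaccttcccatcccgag
Pcdh8, chr14:79771263-79771562, minus strand: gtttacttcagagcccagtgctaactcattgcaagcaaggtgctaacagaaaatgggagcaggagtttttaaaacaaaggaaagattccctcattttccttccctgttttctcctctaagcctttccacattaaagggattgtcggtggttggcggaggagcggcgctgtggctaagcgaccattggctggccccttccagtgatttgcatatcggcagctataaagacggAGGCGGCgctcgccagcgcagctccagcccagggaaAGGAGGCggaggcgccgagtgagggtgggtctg
Ccdc126, shared by the 4 lists, chr6:49319024-49319323, plus strand: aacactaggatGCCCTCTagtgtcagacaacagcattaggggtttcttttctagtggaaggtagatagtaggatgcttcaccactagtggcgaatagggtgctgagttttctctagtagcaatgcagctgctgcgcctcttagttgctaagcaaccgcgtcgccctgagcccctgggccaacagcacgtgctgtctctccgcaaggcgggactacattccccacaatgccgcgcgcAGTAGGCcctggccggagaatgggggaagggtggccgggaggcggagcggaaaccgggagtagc
Hook2, shared by the 4 lists, chr8:84990373-84990672, plus strand: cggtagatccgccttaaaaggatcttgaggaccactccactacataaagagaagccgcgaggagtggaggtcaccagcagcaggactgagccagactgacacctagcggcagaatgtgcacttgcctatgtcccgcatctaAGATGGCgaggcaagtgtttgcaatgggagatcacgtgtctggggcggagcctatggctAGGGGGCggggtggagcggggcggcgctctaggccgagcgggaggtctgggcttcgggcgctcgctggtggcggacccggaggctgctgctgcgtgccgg

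The promoter of Add1, which encodes the cytoskeletal protein adducin, held its summit 25 bp before the gene start, at −log10 q 8.63, and no AGNNGGC. Neither did the promoter of Pik3r4, a subunit of the class III phosphoinositide 3-kinase complex (−log10 q 8.63, 102 bp before the start), nor that of Elavl2, a neuronal RNA-binding protein (8.12, 73 bp before the start). Cdh6, a cadherin, had the short motif at 2 places, the nearer centred 16 bp from a summit of −log10 q 7.95. Pcdh8, a protocadherin, also had it at 2 places, the nearer 46 bp from a summit of 7.48. These 5 summits had pileups of 10 to 13, against 140 at Ccdc126 and 163 at Hook2, whose product links cargo to dynein. Both shared promoters were picked from the top of the list, at percentiles of 99.8, and the summits found in all 3 other lists had a median pileup of 29 (quartiles 16 and 44). The nearest summit in another list was 4826 bp away for Add1, 1230 bp for Pik3r4, 12384 bp for Elavl2, 7574 bp for Cdh6 and 1511 bp for Pcdh8, while at Ccdc126 and Hook2 it lay within 2 and 6 bp.

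Over all 117 promoters that held a member summit, 84 (71.8%, 63.0% to 79.2%) had AGNNGGC on either strand. The share was 67.2% of 610 promoters with another Del(CBS8-10) summit of −log10 q under 10, 79.5% of 2400 with a summit found in all lists, 55.0% of 22457 with no summit in any list, and 59.4% of all 29107 promoters. The longer pattern CCA, any 2 bases, AG, any 2 bases, GGC, which contains the shorter one, was in 4 member promoters (3.42%, 1.34% to 8.46%), against 2.13% of the promoters with another weak summit, 9.75% of those with a summit in all lists and 2.42% of all. Thus the members' share of the longer pattern was below that of shared summits and did not differ from that of all promoters beyond its counting interval. Median GC content was 58% in member promoters and 59.7% in those of shared summits, against 52.7% over all promoters, which also moves the chance of a match. A match of letters does not show binding, and its absence from a window of 300 bases says nothing about CTCF.

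The longer pattern belonged to 3 distinct member summits, shown here with the fixed letters of the pattern in capitals.
Dnpep, chr1:75317098-75317109, plus strand: CCActAGccGGC
Gm35466, chr8:122823781-122823792, plus strand: CCAgaAGagGGC
Rbm25, chr12:83635713-83635724, plus strand: CCAgaAGagGGC
Gm35466 is a gene whose 2 listed promoters share that site, centred 5.5 bp from a summit of −log10 q 3.09. At Dnpep, an aminopeptidase gene, the site was 48.5 bp from a summit of 3.31, and at Rbm25, a splicing-factor gene, 67.5 bp from one of 1.38. All 3 summits were weak, with pileups of 6, 11 and 5 at Gm35466, Dnpep and Rbm25, and no interval of the other lists overlapped theirs.

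The members lay at the weak end of their own list. Their −log10 q had a median of 3.46, quartiles of 2.44 and 4.56 and a maximum of 20.4, against a median of 15.2 for the other Del(CBS8-10) summits. The within-list percentile, the rank of a summit's −log10 q among all summits of the list, had a median of 11.1 for members (quartiles 4.45 and 19.2) and of 56.5 for the others. Of the 7098 members, 5962 (84.0%) fell under the 25th percentile and 34 over the 50th. The median fold was 4.51 for members and 8.70 for the others. Strength and absence elsewhere come from the same peak calls, so these values describe what the choice by position selected and are no separate finding.

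**Figure D1:**
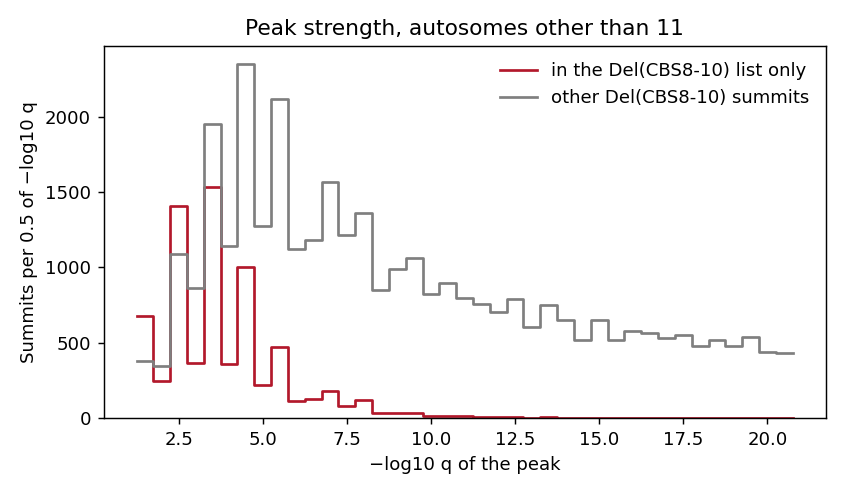
Number of Del(CBS8-10) summits (y axis) per 0.5 of −log10 q (x axis), for the 7098 summits in that list only and for its other 57401 summits; summits above 20.75 are not drawn. The members crowd around their median of 3.46, and spikes recur where peaks share the same whole-number pileup over the same background.

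Most member peaks had a low pileup. Whether the caller counted reads or fragments was not given. The whole-number pileup recovered from the fold and the p-value was 6 at the median member (quartiles 5 and 8, maximum 32) and 21 at the median of the others. It was 8 or fewer at 5532 members (77.9%), against 14.2% of the others with a recovered value. The commonest recovered background of the list, 0.553, was taken as the genome-wide level of the library, although 4 members lay under it. It was the local background of 47.5% of members and 8.05% of the others. A single combination, a pileup of 6 over that background (fold 4.51, −log10 q 3.46), accounted for 1030 members (14.5%), against 893 other summits (1.56%). Pileups of 5, 7, 4 and 8 over the same background accounted for 976, 567, 434 and 222 members, and for 517, 960, 171 and 753 other summits. At a pileup of 4 over the genome-wide level, 71.7% of the list's summits had no counterpart elsewhere, and at 8 the share was 22.8%.

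The share of summits in the Del(CBS8-10) list only was smaller in each stronger band. It was 60.5% of 1197 summits of −log10 q under 2, 50.7% from 2 to 3, 32.8% from 3 to 5, 9.53% from 5 to 10 and 0.719% from 10 to 20. From 20 to 50 it was 1 of 18186 summits, and from 50 upwards 0 of 5426, whose Wilson interval reaches 0.0707%. By deciles of the list, the lowest held 48.2% members, the next 35.2%, and the top 30% of percentiles held none. Weak peaks that were found in another list were also common, since 6630 of the 9864 summits of −log10 q from 3 to 5 had a counterpart.

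The same rule applied to each other list gave 15334 of 85864 summits for Inv:Del(CBS7-10) (17.9%), 4023 of 56237 for Inv (7.15%) and 11882 of 81054 for Ins (14.7%). The Del(CBS8-10) share of 11% thus lay between those of Inv and Ins, in the order of the lists' lengths. Its members were weaker than the summits found in each other list only, with 92 (1.3%) at −log10 q of 10 or more, against 3116 (20.3%) in Inv:Del(CBS7-10), 112 (2.78%) in Inv and 1283 (10.8%) in Ins. The strongest reached 20.4 in Del(CBS8-10), against 221 in Inv:Del(CBS7-10), 35.0 in Inv and 469 in Ins. The genome-wide background, taken in each list as the commonest recovered value, was 0.553 in the Del(CBS8-10) library, 1.33 in Inv:Del(CBS7-10), 0.190 in Inv and 0.858 in Ins. A q-value depends on that level and on the depth of its library, so equal −log10 q does not mean equal enrichment across lists.

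**Figure D2:**
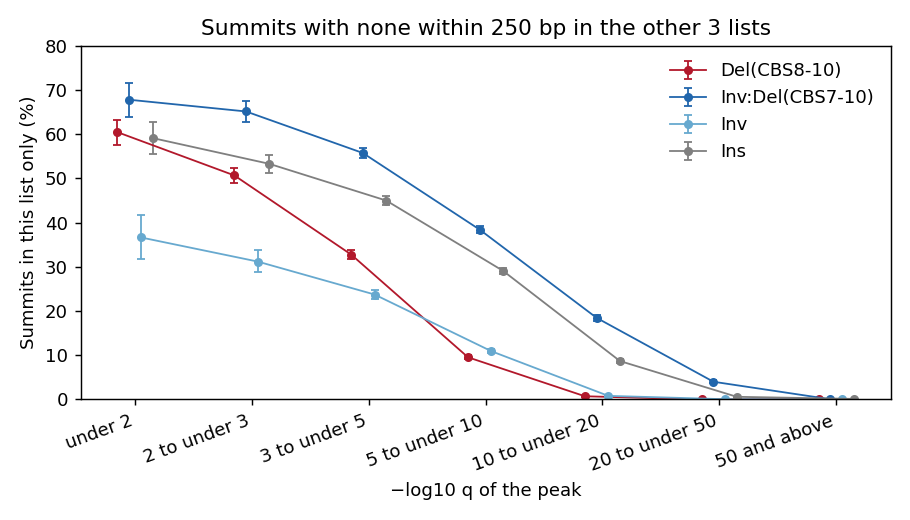
Share of each list's summits that had no summit within 250 bp in the other 3 lists (y axis, percent), by band of −log10 q (x axis), for the 4 lists; points are shares and bars 95% Wilson intervals, which cover counting error only. The Del(CBS8-10) share was 9.53% in the band from 5 to 10, where Inv:Del(CBS7-10) stood at 38.4%, Inv at 10.9% and Ins at 29.1%.

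Which of the other lists lacked a summit differed widely. Of the 64499 Del(CBS8-10) summits, 11139 (17.3%) had no counterpart in Inv:Del(CBS7-10), 21923 (34%) none in Inv and 9893 (15.3%) none in Ins. A further 1769 summits were shared with Inv:Del(CBS7-10) alone, 290 with Inv alone and 3214 with Ins alone. Summits found in 1 other list had a median −log10 q of 4.80 (5273 summits), those in 2 of 7.15 (11115) and those in all 3 of 22.9 (41013), so the members at 3.46 stood at the low end of a graded order.

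Member peaks were narrow. The median width was 205 bp (quartiles 200 and 245, maximum 1011), against 307 bp for the other summits, and 45.3% of members had the smallest width in the list, 200 bp, against 7.47% of the others. Much of this gap went with strength. Within bands of −log10 q the medians were 200 bp for members and 200 bp for others under 2, 200 and 202 bp from 2 to 3, 205 and 219 bp from 3 to 5, 240 and 251 bp from 5 to 10, and 275 and 293 bp from 10 to 20.

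A minority of the members belonged to peaks that reached into a neighbouring site. The interval of 616 members (8.68%) touched an interval of another list, although the summits were over 250 bp apart. These had a median width of 517 bp, a pileup of 11, a background of 1.63 and a −log10 q of 4.22, and 58.8% of them lay in an interval with more than 1 summit. The 6482 whose interval touched none (91.3%) had a median width of 202 bp and a pileup of 6. In 362 cases the interval also held a summit that was found in another list. Which of the summits in such an interval was the stronger was not compared. By the same measure 9.81% of Inv:Del(CBS7-10)-only, 10.6% of Inv-only and 11.6% of Ins-only summits touched another list's interval.

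The distance to the nearest summit elsewhere had a median of 7125.5 bp. It was over 250 and up to 300 bp for 458 members, of which 87.8% touched another list's interval, up to 500 bp for 502 more and up to 1000 bp for another 412. From 1000 to 5000 bp there were 1452 members, from 5000 to 10000 bp 1456 and from 10 to 100 kb 2619 (36.9%), and 199 were over 100 kb away. At the limit itself, 142 members at up to 260 bp had a median −log10 q of 4.88 (1.56 to 20.4) and a width of 518 bp, and 140 summits left out at over 240 bp had 4.64 (1.38 to 29.4) and 504.5 bp. Summits just inside and just outside the limit were thus alike in strength and width.

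**Figure D3:**
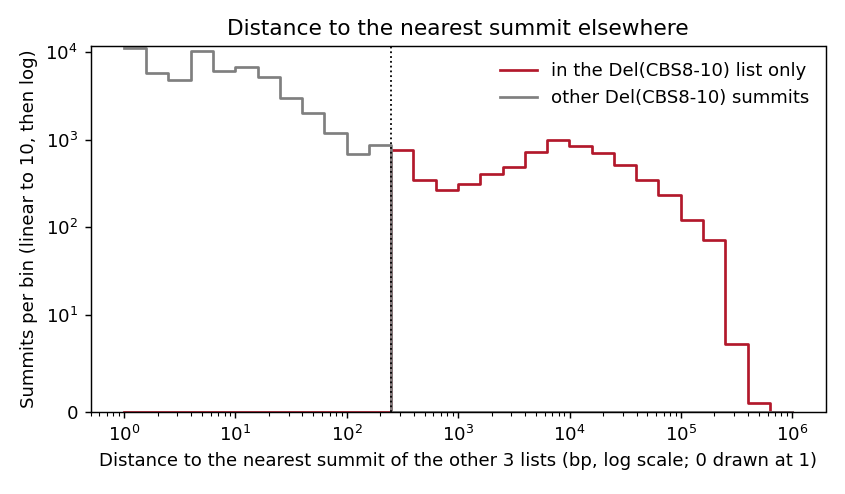
Number of Del(CBS8-10) summits per bin (y axis, linear to 10, then logarithmic) by distance to the nearest summit of the other 3 lists (x axis, bp, logarithmic, 0 drawn at 1); the dotted line is the 250 bp limit that separates members from the others. The other summits lie mostly within 14 bp of a counterpart, the third quartile, and the members have a small group just past the limit and a broad one around their median of 7125.5 bp.

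The strongest members were of both kinds. The highest lay inside Gse1 at chr8:120288415, with −log10 q 20.4, fold 9.73 and a pileup of 28 over 1.98. It was 1 bp past the limit from a summit of Inv:Del(CBS7-10), 255 bp from one of Inv and 252 bp from one of Ins, in an interval of 675 bp that held a further summit. The next, at chr1:172047353 (19.4), lay 4.94 kb from Nhlh1, a neuronal basic helix-loop-helix factor, and was 252, 253 and 254 bp from the summits of the same 3 lists in that order. The summit inside the lncRNA gene Gm35934 at chr8:18899056 (16.9) was 267, 275 and 255 bp away, and that inside Atl1, an atlastin GTPase that shapes the endoplasmic reticulum, at chr12:69924470 (14.8) was 255, 263 and 258 bp away. All 4 touched intervals of other lists.

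The other 6 of the top 10 stood apart from any interval of another list. A summit near the lncRNA gene Gm30550 at chr5:140414744 had −log10 q 17.5 and a pileup of 29 over 2.78, and the nearest summits were 2958 bp (Inv:Del(CBS7-10)), 3204 bp (Inv) and 3208 bp (Ins) away. The member with the highest fold, 11, lay inside Iqsec3, which encodes an exchange factor for ARF GTPases at inhibitory synapses, at chr6:121445731 (−log10 q 16.8, a pileup of 17 over 0.640). Its nearest summit in Inv:Del(CBS7-10) was 48958 bp away, in Inv 52191 bp and in Ins 27563 bp. A summit 1.05 kb from Tradd, an adaptor of the tumour necrosis factor receptor, at chr8:105257527 had 16.1, and one inside Atl3, another atlastin, at chr19:7512280 had 15.

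Gene-poor places also held strong members. The summit at chr9:81149395 (−log10 q 15, fold 10.3, a pileup of 15 over 0.553) was 132 kb from the nearest gene, the pseudogene Gm8151, and 68712 bp from the nearest summit elsewhere. That at chr14:93973518 (14.9, fold 10.3) lay 80.7 kb from Pcdh9, a protocadherin gene, and 49775 bp from the nearest summit elsewhere. A summit 11.7 kb from Slc12a2, a sodium-potassium-chloride cotransporter, at chr18:57958566 had 13.6 and a fold of 9.66, and its nearest summit elsewhere was 7093 bp away. Of the 92 members with −log10 q of 10 or more, 73 (79.3%, 70.0% to 86.4%) stood apart, and 36177 of the other summits (63.0%) were that strong.

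The widest member intervals all reached into sites of other lists and had several summits. They were a 1011 bp interval inside the lncRNA gene Gm39116 on chromosome 7, 988 bp intervals inside Habp4 and inside Chrna9, which encodes a nicotinic acetylcholine receptor subunit, a 949 bp interval at Slc16a14, of the monocarboxylate transporter family, and an 889 bp interval in Kcnk13, a potassium channel gene. Their folds were low, from 2.92 at Chrna9 to 5.05 at Habp4, over backgrounds of 3.04 to 4.82. The background was higher at each of these 5 than the members' median of 0.560.

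The share of members at gene starts was below that of the other summits of their list, by more than the counting intervals. Members were chosen by their distance to summits of other lists, and how far that choice alone sets the gap was not tested. Of the members 361 (5.09%, 4.60% to 5.62%) were within 1 kb of a gene start, against 8.83% (8.60% to 9.06%) of the others. The gap was there in each band of strength that held over 100 members, with 4.70% of members and 14.0% of others under −log10 q 2, 4.72% and 11.6% from 2 to 3, 4.92% and 11.7% from 3 to 5, and 6.26% and 11.8% from 5 to 10. Within 250 bp of a start the shares were 1.99% of members and 5.17% of others. The nearest such start was that of a protein-coding gene for 267 members and of a lncRNA gene for 94.

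The far end of the scale showed the opposite, with the same limit. Places over 100 kb from any gene held 281 members (3.96%, 3.53% to 4.44%), against 1.44% (1.35% to 1.54%) of the other summits, and by band 5.11% and 1.69%, 4.78% and 2.07%, 3.65% and 2.01%, and 3.05% and 1.66%. A further 20.8% of members and 16.5% of others were 10 to 100 kb from a gene, and 18.6% of members and 21.6% of others were outside but within 10 kb. Inside genes, away from starts, the shares were the same at 51.6% of members and 51.6% of others. Outside genes the median distance to the nearest gene was 12.4 kb for members and 7.09 kb for others. Gene starts could be placed for 79.9% of protein-coding genes and for none on chromosome 18, where 260 members lay, so the start shares are low for both groups.

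**Figure D4:**
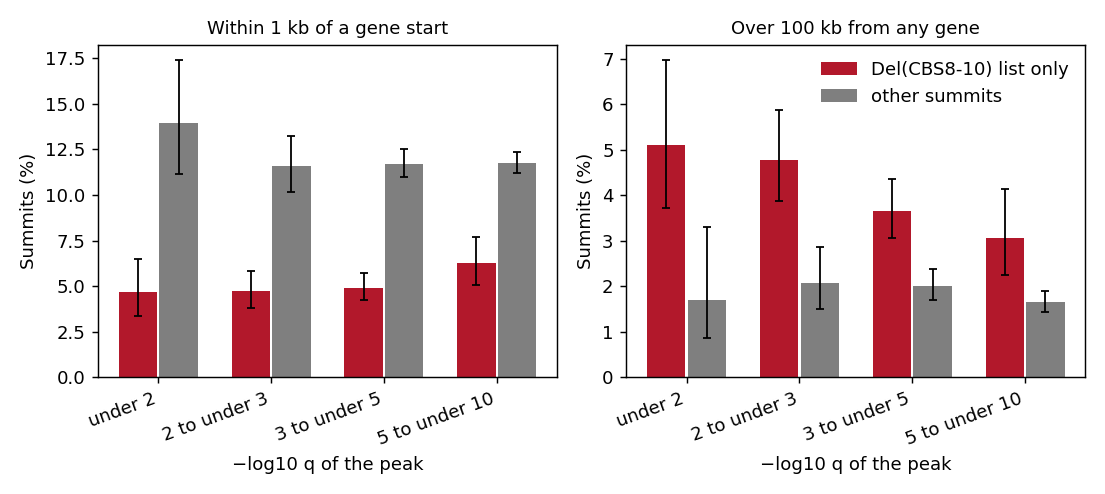
Share of summits (y axis, percent) within 1 kb of a gene start (left panel) and over 100 kb from any gene (right panel), by band of −log10 q (x axis), for summits in the Del(CBS8-10) list only and for its other summits; bars are shares and error bars 95% Wilson intervals. In every band drawn, members have the lower share at starts (4.70% to 6.26%, against 11.6% to 14.0%) and the higher share far from genes (3.05% to 5.11%, against 1.66% to 2.07%).

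Among the members themselves, the share at gene starts varied with the distance to the nearest summit elsewhere, the measure by which members were chosen. Of the Del(CBS8-10) summits found in all 3 other lists, 9.17% were at starts. How far the placing of the other lists' summits sets the trend was not tested. The members' share was 9.39% up to 300 bp, 11.4% at 300 to 500 bp and 14.3% at 500 to 1000 bp. Further away it was 5.58% at 1 to 5 kb, 3.78% at 5 to 10 kb, 2.37% at 10 to 100 kb and 2.01% beyond. The summits in the list of a single other line also differed in this respect, since 6.82% of Inv:Del(CBS7-10)-only, 10.9% of Inv-only and 12.1% of Ins-only summits were within 1 kb of a start, all above the members' 5.09%. By class of gene, 46.2% of members and 47.7% of others lay inside a protein-coding gene, 9.52% and 9.59% inside a lncRNA gene, and 1.10% and 0.775% inside a pseudogene.

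At protein-coding starts the members were of middling strength at most. The highest was at Tarbp2, the partner of Dicer in making small RNAs, with −log10 q 10.5. It lay 187 bp after the start and 285 bp from the nearest summit elsewhere. At Kmo, which encodes kynurenine 3-monooxygenase, the summit (10.0) lay 858 bp before the start and 5173 bp from the nearest summit elsewhere. At Wnt5b, a Wnt ligand, it had 9.81, and the nearest summits were 9874 bp away in Inv:Del(CBS7-10), 9867 bp in Inv and 9867 bp in Ins. The zinc-finger gene Zfp640 (9.66), the bitter taste receptor gene Tas2r126 (9.14), the chloride-proton exchanger gene Clcn3 (9.14), Smim8 (9.08) and Zbtb8os (8.73) came next, before Add1 and Pik3r4. Of these 10 starts, those of Tarbp2 and Smim8 had an interval that touched another list's.

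Over all 43951 RefSeq genes of these autosomes, 6601 (15%) had a member in the gene or within 10 kb of it, and the share was 21.6% of 19052 protein-coding genes. Long genes have more room for a summit, and lists of genes were read against these shares without a test. Of 20 genes of pluripotency, 1 had a member (5.00%), Pou5f1, which encodes the stem cell factor OCT4. The stronger of its 2 members, at chr17:35497252, had −log10 q 3.67 and was 283 bp from a summit elsewhere, among 10 Del(CBS8-10) summits that reached 43.5. Of 13 genes of the 2-cell-like state 3 had any Del(CBS8-10) summit within 10 kb (23.1%), against 65.9% of all genes. For the 29 Hox genes of the other clusters it was 26 (89.7%). None of these 2-cell-like or Hox genes had a member.

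In the neural list 2 of 10 genes had one, Map2, a microtubule-associated protein (chr1:66407752, −log10 q 9.41, the only Del(CBS8-10) summit of that gene), and Neurog2, a proneural factor (3.87). Of 10 mesoderm and endoderm genes 3 had one, Sox17 (4.22), Gsc (2.44) and T (1.89), factors of endoderm, organizer and early mesoderm, and of 7 fibroblast genes 1, Thy1 (6.36). The nearest summit elsewhere was 1470 bp away for Map2, 531 bp for Neurog2, 252 bp for Sox17, 265 bp for Gsc, 2973 bp for T and 376 bp for Thy1. The intervals at Neurog2, Sox17, Gsc and Thy1 touched one of another list, and those at Map2 and T did not. A CTCF peak does not show whether a gene is expressed, so these counts say nothing about the state of the cells.

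Genes whose own biology involves CTCF were mixed. Of 18 imprinted genes 3 had a member (16.7%), Zim1 (6.25, 270 bp from a summit elsewhere), Peg10 (3.46, 13214 bp) and Igf2r (3.18, 636 bp). Of 11 genes of CTCF, cohesin and its partners 5 had one (45.5%, 21.3% to 72.0%), and this list has a median gene length of 67.3 kb, against 6.22 kb over all genes. The highest of these were at Smc3, part of the cohesin ring (8.14), near Ctcf itself (4.32) and at Stag1, another cohesin subunit (2.44). Among the clustered protocadherins, whose choice of promoter depends on CTCF, 32 of 57 genes had a member, but the genes share exons and overlap, and 5 distinct summits gave all 32. The highest of these, at chr18:37674580 in the shared span of Pcdhga1, Pcdhga2 and Pcdhga3, had −log10 q 10.7 and lay 292 bp from a summit elsewhere.

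Among families of many copies, 76 of 1426 chemosensory receptor genes had a member (5.33%). These genes are short, with a median length of 0.951 kb, against 6.22 kb over all genes, and 292 of them had any Del(CBS8-10) summit within 10 kb. Among genes with such a summit, 76 of 292 chemosensory genes and 6601 of 28945 genes overall had a member. Members were the only Del(CBS8-10) summits within 10 kb for 1423 of the 6601 genes overall and for 61 of the 76 chemosensory genes. The highest were near Vmn1r46, a pheromone receptor (chr6:89986166, 12.2, 35851 bp from a summit elsewhere), Tas2r126, named above, and Olfr687, an odorant receptor (7.82). Of 431 zinc-finger genes 94 had a member (21.8%). The highest were 6365 bp from Zbtb44 (13.6), in an interval that touched another list's, and in Zfp640 and Zbtb7c (9.47). Of 65 homeobox and Pax genes 15 had one (23.1%), led by Pbx4 (6.17) and Six2 (5.80). Ribosomal protein genes had a member in 6 of 73 cases (8.22%), with Rps20 at 8.39 and Rpl13a at 6.83, and histone genes in 6 of 71, from 2 distinct summits, one of which (4.20) served H2ac10, H2bc9 and H3c7.

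Long genes collected the most members. Over all Del(CBS8-10) summits examined, 11% were members. The immunoglobulin heavy chain locus Igh, with 2751187 bp, held 11 among 114 Del(CBS8-10) summits, a share below that of the list. None of these members was above −log10 q 4.56. Csmd1, a large membrane protein gene, held 7 of 31, and Spag16, a gene of the sperm tail axoneme, 7 of 9, so most of its summits in this list were members, the highest at 6.58. Gpc5, a glypican, and Ptprt, a receptor tyrosine phosphatase, held 6 of 16 each.

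The members were spread over the genome. Of 2289 windows of 1 Mb that held a Del(CBS8-10) summit, 2088 (91.2%) held a member, with a median of 3 per window, a mean of 3.10 and a maximum of 13, and 23 windows had 10 or more. The 20 windows fullest of members held 213 of them (3%), against 3.43% of the other summits in theirs and 3.49% of the 21224 other summits of −log10 q under 10. By this measure the members were no more concentrated than the rest of the list. Another member lay within 1 kb of 54 members (0.761%), within 10 kb of 477 (6.72%) and within 100 kb of 3637 (51.2%), and neighbouring members were a median of 196 kb apart.

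Windows rich in other summits had more members but a lower share of them. Across the 2289 windows, the number of members had a Pearson r of 0.52 and a Spearman rho of 0.53 with the number of other summits. These windows share a library and the layout of genes. The share of members had a rho of −0.40 with the number of summits. That number is the denominator of the share and also sorts the sets of windows below, so part of this trend can be arithmetic. In the 573 windows with the fewest summits (1 to 11 each) 23.4% of 3723 summits were members, in the next 572 it was 14.4%, then 11.2%, and in the densest 572 (40 to 125 each) 8.55% of 33734. Peaks of −log10 q under 10 made up 55.9%, 46.6%, 43.6% and 41.7% of the summits of those 4 sets of windows. The number of members per window had a rho of 0.50 with that of Inv:Del(CBS7-10)-only summits, 0.34 with Inv-only and 0.50 with Ins-only summits, so windows with many summits of one kind tended to have many of the others.

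**Figure D5:**
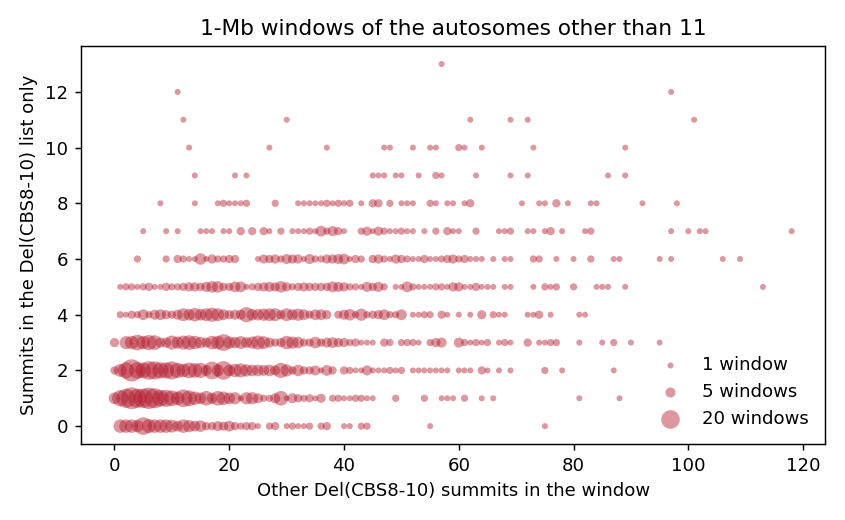
Number of summits in the Del(CBS8-10) list only (y axis) against the number of other Del(CBS8-10) summits (x axis) in each of 2289 windows of 1 Mb on the autosomes other than 11; the area of a point grows with the number of windows at that place. Counts per window reach 13, and windows with few other summits and many members stand at the upper left.

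The fullest window, chr18:67000001-68000000, held 13 members among 70 summits, the strongest inside Spire1, an actin nucleator gene, at −log10 q 7.48. Members made up 12 of 109 summits at 28 to 29 Mb of chromosome 17, 11 of 112 at 35 to 36 Mb, in the major histocompatibility region with H2-Q2 nearest to its strongest, and 11 of 83 at 24 to 25 Mb. Other windows with 11 members were at 126 to 127 Mb of chromosome 4 (of 73 summits), 100 to 101 Mb of chromosome 15 (of 80) and 64 to 65 Mb of chromosome 5 (of 41).

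In 3 of the 10 fullest windows members made up over 40% of all summits, a threshold set after their values were seen. At 7 to 8 Mb of chromosome 7, which holds Vmn2r29 to Vmn2r36 of the vomeronasal receptor family, 12 of 23 summits were members (52.2%, 33.0% to 70.8%), the strongest inside Vmn2r35 (7.82). At 5 to 6 Mb of chromosome 14, a cluster of predicted genes such as Gm3248, it was 11 of 23 (47.8%), and at 4 to 5 Mb beside it 10 of 23 (43.5%). In these 3 windows, in that order, the Inv:Del(CBS7-10) list had 4, 12 and 10 summits of its own, the Inv list 1, 3 and 3, and the Ins list 4, 7 and 5. How reads from near-identical gene copies were placed is not stated in the labels, so the copy at which such a summit lies is uncertain.

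Across chromosomes the share of members ran from 9.51% on chromosomes 7 and 19 to 14.0% (12.8% to 15.3%) on chromosome 13. On chromosome 13 the Inv:Del(CBS7-10)-only share, 21.3%, was also the highest of that list. The members thus occurred on every autosome examined, with shares that differed by less than the bands of strength did.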

How the data were processed

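Per the labels' protocols, CTCF CUT&RUN libraries were made from 4 mESC lines, 1 library each, without replicates. The tools listed in the submitters' processing notes are MACS2 2.2.7.1, bedtools 2.30.0, Picard, Bowtie2 2.4.5 and cutadapt 4.1, and the build is mm10. Their settings, the read depth and any control library were not given in the sources used here. Peaks were listed by the authors for each library separately, on mm10 with 2 versions of chromosome 11. The deposited lists give, per summit, a score, a fold over local background, a −log10 p, a −log10 q and the summit offset within its interval, all made by the authors' peak caller. The fold, the −log10 p and the −log10 q served here to describe summits within a list, and the score was not used.

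Everything else was computed with SciPy 1.17.1, pandas 2.3.3 and NumPy 2.4.6 under Python 3.11.15, and plots with Matplotlib 3.10.9. A summit was the interval's start plus its offset, printed counted from 1. Pileup and background were solved for from −log10 p and fold together (tolerance 0.001) for 99.9% of the Del(CBS8-10) peaks and 98.3% or more in each list. The matching was checked on shifted copies of the Del(CBS8-10) summits. The solver was checked on simulated pileups no lower than the members' median of 6 and on backgrounds above the 0.190 of the Inv library. Lower pileups, which many members had, and lower backgrounds were not covered by that check. Percentiles are mid-ranks of −log10 q in the whole list. Genes came from RefSeq (GRCm38.p6). That gene table gives no strand, so starts came from the RefSeq promoter table. Intervals are 95% Wilson intervals, medians are given with quartiles, and no test was run, since each genotype had 1 library. Members and gene lists were chosen with earlier results of these data known, and 2241 of 2392 list genes were matched on these autosomes. Named were the 10 strongest members, the 5 of highest fold, the 5 widest, the 10 strongest at protein-coding starts, up to 3 genes per list, the 10 fullest windows and the summits at the distance limit. A few genes chosen in this way are not reported here. Genes with the most members were named after their counts were seen. Alternatives were other matching distances, interval overlap, stricter thresholds, equal list lengths, 1 summit per interval, each other list left out, all chromosomes, other start definitions and shifted windows.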

Additional observations from a re-analysis of the deposited data

Results flagged for a closer look

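Chromosomes outside the comparison also held Del(CBS8-10) summits with no summit within 250 bp in the other lists. Each was noted because its data entered no result of the report other than the alternative with all chromosomes. There were 275 such summits of 3849 (7.14%) on the version of chromosome 11 named chr11 and 315 of 3890 (8.10%) on the version named chr11_delB. How reads that match both versions were placed is not stated in the labels, so these counts cannot be assigned to a single copy of the chromosome. On chromosome X there were 188 of 2020 (9.31%). On chromosome Y there were 174 of 284 (61.3%, 55.5% to 66.7%), against 7 of 68 for Inv:Del(CBS7-10), 30 of 81 for Inv and 48 of 160 for Ins. Those on chromosome Y had a median −log10 q of 4.56 and a maximum of 13.6.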

How the results depend on the processing

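The number of members, 7098, was within 1.5 times under 9 alternatives, from 5726 at a matching distance of 1000 bp to 10312 without the Ins list. It fell to 1402 of 50010 Del(CBS8-10) summits (2.80%) with −log10 q of at least 5 and to 92 of 36269 (0.254%) with at least 10. With the 20000 strongest summits of each list it was 1450, and all 1450 had a counterpart in the full lists, so different summits were counted.

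The share at gene starts, 5.09%, was 6.06%, 4.25% and 3.53% at matching distances of 100, 500 and 1000 bp, 6.13% and 4.35% at −log10 q of at least 5 and 10, 5.63% with 1 summit per interval and 5.94% without the Ins list. It was 3.14% for starts within 500 bp, 3.97% for protein-coding genes and 10.1% for either gene end, an alternative chosen after seeing the data. The median width, 205 bp, was 214, 202 and 202 bp at 100, 500 and 1000 bp, 202 bp with no interval overlap, 242 and 275.5 bp at −log10 q of at least 5 and 10, 332 bp for the 20000 strongest, 214 bp without Ins and 209 bp without Inv:Del(CBS7-10). The median percentile, 11.1, was 29.6 and 48.2 at −log10 q of at least 5 and 10, 77.7 for the 20000 strongest and 14.0 without Ins. The share in the 20 fullest windows, 3%, was 6.63%, 22.8% and 6% under the same 3 restrictions, with fewer summits over the same windows. The cause was not tested where none is named.

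No paired analysis was possible because each genotype had 1 library. Depth is unknown, and with a median pileup of 6 the absence of a summit elsewhere was not distinguishable from a peak just under the calling limit. Without a genome sequence, motifs were read in promoters alone.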
